A study of Piaractus mesopotamicus and Piaractus mesopotamicus x Colossoma macropomum and Colossoma macropomum with 15 samples.

Results

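The comparison described here sets fast muscle of the hybrid tambacu (TC) against fast muscle of pacu (PC), its paternal species. Fast muscle is the white fiber mass that powers rapid swimming. Its miRNAs were read by small RNA sequencing in 5 TC fish (numbered 3, 4, 5, 6 and 8 in the labels) and 5 PC fish (3, 4, 5, 8 and 10), 1 library per fish. TC fish came from a cross of Colossoma macropomum (tambaqui) females with Piaractus mesopotamicus (pacu) males, and PC fish were pure Piaractus mesopotamicus. All were early juveniles, kept in aerated tanks under natural day length, and none was treated. Of the series' 15 fish, the 5 of pure tambaqui (TQ) entered the fit for its spread and its library scaling and were not compared. Through these they could also shift the TC and PC estimates. The miRNAs were every count row whose normalized count averaged 10 or more over the 10 fish, which left 197 of 595 rows. Rows that are copies of 1 mature sequence were reported as 1 observation, by the copy with the highest total, so 150 of 369 mature names were compared. The fit and its adjustment for many tests were still run on all 197 rows, copies included. A fit with 1 copy per name was an alternative, and its counts are given at the end. The minimum was passed in both genotypes by 148 of the 150 names, in TC alone by miR-216b and in PC alone by miR-730. The names nearest to the minimum were miR-730 inside it, at 10.3, and miR-133c-5p outside it, at 9.33.

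A miRNA is cut from a hairpin precursor with 2 arms, named 5p and 3p. One arm usually becomes the guide that is loaded into the silencing complex, and the other, the passenger strand, is mostly degraded. The loaded strand finds its mRNAs mainly through its seed, bases 2 to 8 from the 5′ end, and lowers their translation and stability. miRNAs with 1 seed form a family with largely shared targets. In vertebrate muscle, miR-1, miR-133 and miR-206 are known for their part in fiber formation, and let-7, miR-26, miR-221 and miR-27 for acting on the step from dividing myoblast to differentiated fiber in mammals and birds.

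Total counts, summed over all rows with copies included, were 2422820 to 5669084 in TC fish and 2918058 to 5089685 in PC fish. Levels are given as CPM, counts scaled to a common library size after TMM scaling. A count of 0 would allow 0.464 to 1.33 CPM in different fish, a limit that covers counting error alone. Each fish differed from the others of its genotype by far more than sampling noise (chi-square per degree of freedom 133 to 4541 over 20 pairs). PC 4, TC 8 and PC 8 lay over 1 log2 unit from the mean of the other fish of their genotype in 17, 16 and 12 names, while the other 7 fish did so in 2 to 8. The reads had been matched to zebrafish (Danio rerio) precursors, and how far pacu or tambacu sequences depart from these was not tested. Of the 369 names, 160 were at 0 in all 10 fish, and for 52 of these every annotated place overlaps that of another mature name. These include miR-133a-3p, miR-133b-3p, all 4 miR-126 names, miR-26a-5p, miR-16a, miR-16b, miR-103 and miR-200a-3p, so a count of 0 there does not show absence, and these families were measured in part or not at all. Of 9 names on the list of striated muscle miRNAs, miR-1 and miR-206-3p could be tested.

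The sequences below are the miRBase entries of Danio rerio on which reads were counted, 5′ to 3′, with the seed in capitals. They were not read from these fish. The set shown first holds the miRNAs called different between TC and PC, those past both thresholds given below.
miR-216b: uAAUCUCUgcaggcaacuguga
miR-216a: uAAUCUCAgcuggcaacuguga
miR-2188-5p: aAGGUCCAaccucacaugucc
miR-1388-5p: aGGACUGUccaaccugagaaug
miR-210-5p: aGCCACUGacuaacgcacauug
miR-199-3-3p: aCAGUAGUccgcacauugguu
miR-26a-2-3p: cCUAUUCAugauuacuugcacu

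The other set holds families and close relatives whose members are compared below. The first 4 share the seed AUUGCAC, and most of the others are pairs that differ by few bases.
miR-363-3p: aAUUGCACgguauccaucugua
miR-25-3p: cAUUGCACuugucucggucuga
miR-92a-3p: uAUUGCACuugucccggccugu
miR-92b-3p: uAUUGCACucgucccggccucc
let-7g: uGAGGUAGuaguuuguauaguu
let-7f: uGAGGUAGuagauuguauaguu
miR-101a: uACAGUACugugauaacugaag
miR-101b: uACAGUACuaugauaacugaag
miR-22a-5p: aGUUCUUCacuggcaagcuuua
miR-22b-5p: cGUUCUUCacuggcuagcuuua
miR-221-3p: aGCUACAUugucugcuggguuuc
miR-222a-3p: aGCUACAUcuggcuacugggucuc
miR-26a-3p: cCUAUUCGggaugacuugguuc
miR-199-3p: uACAGUAGucugcacauugguu

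Over the same 22 positions, let-7g and let-7f differ at 1 (position 12) and miR-101a and miR-101b at 1 (position 10). miR-22a-5p and miR-22b-5p differ at 2 positions, outside the seed. miR-216a and miR-216b also differ at 2, one of them position 8, so their seeds are not identical. miR-26a-3p and miR-26a-2-3p differ at 7 positions, position 8 among them. Read from base 2 on, miR-199-3p differs from miR-199-3-3p at 1 of 21 positions. Reads of such near-identical sequences were not separated here beyond the deposited counting.

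The precursors of miR-1388 and miR-22a are shown with both mature arms in capitals, because both arms of the first and 1 arm of the second passed the test.
dre-mir-1388: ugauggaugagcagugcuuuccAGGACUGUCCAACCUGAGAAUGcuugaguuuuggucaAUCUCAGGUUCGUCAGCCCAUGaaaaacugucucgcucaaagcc
dre-mir-22a: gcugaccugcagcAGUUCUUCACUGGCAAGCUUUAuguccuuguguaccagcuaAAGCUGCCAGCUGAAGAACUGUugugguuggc

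Between TC and PC, 7 of 150 mature names were called DE (4.67%). A call needed a log2FC of 0.75 or more in either direction and, in edgeR's quasi-likelihood test, an adjusted p (padj, after Benjamini and Hochberg) no higher than 0.05. Upregulated in TC were 5 (3.33%), namely miR-216b, miR-216a, miR-2188-5p, miR-1388-5p and miR-210-5p. Downregulated were 2 (1.33%), miR-199-3-3p and miR-26a-2-3p. Without the log2FC minimum, 18 names passed padj (12%), 12 higher in TC (8%) and 6 lower (4%). The median log2FC over the 150 names was 0.01, 76 were higher and 74 lower in TC, and 117 differed by less than 0.5 in either direction. At an unadjusted p under 0.05, 25 names were higher and 21 lower. In 14 names (9.33%) the 5 TC and 5 PC fish did not overlap, 8 with TC above (5.33%) and 6 with TC below (4%). Leaving out PC 4 gave 10 calls, 9 up and 1 down, leaving out PC 10 or TC 5 gave 5, 4 up and 1 down, and leaving out PC 5 gave 8 up and 0 down. Without TC 5, 11 names passed padj. With 1 copy per name in the fit, all 7 calls were kept. In that fit miR-22a-5p, miR-132-3p, miR-375 and miR-138-5p were called as well, all lower in TC. Calls in both directions depended on the scaling of the libraries. With total counts as library sizes, the median of all names shifted by -0.11, and the calls were 4 up and 0 down, with miR-210-5p, miR-2188-5p, miR-199-3-3p and miR-26a-2-3p lost and miR-10a-5p gained. With size-filtered reads as library sizes, it shifted by -0.12, 3 were called up and 0 down, and miR-1388-5p was lost too. With either of these library sizes, no name besides the called ones passed padj. The log2FC of the downregulated names was farther from 0 with each of 6 other settings, at -0.84 to -1.01 for miR-199-3-3p and -0.79 to -0.90 for miR-26a-2-3p. These calls were thus lost on padj. The 6 settings are called other scalings below. They were DESeq2 size factors, total counts, size-filtered reads, library sizes without miR-199-5p and miR-100-5p, copies summed and 1 copy per name. Summing copies or keeping 1 per name left TMM in place and changed the rows. The median of all names shifted by -0.04 to -0.12 with them, always downward, so staying below 0 was favored beforehand.

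**Figure D1:**
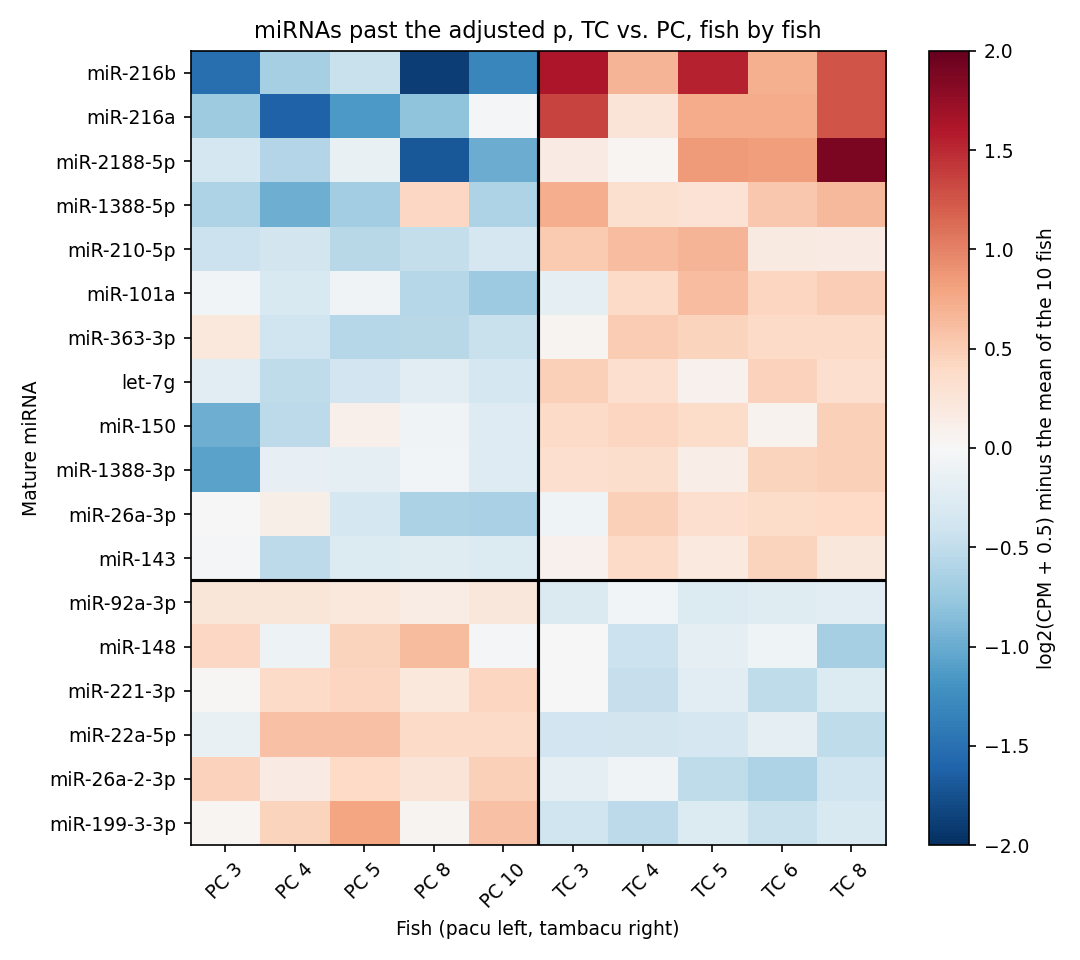
Heat map of the 18 miRNAs past padj (rows, ordered by log2FC) in the 5 PC and 5 TC fish (columns), with color giving log2(CPM + 0.5) minus the mean of the 10 fish. The 12 upper rows are mostly blue in PC and red in TC and the 6 lower rows the reverse, with exceptions such as miR-1388-5p in PC 8 and miR-363-3p in PC 3.

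In the plot of single fish, TC 8 was above every PC fish in all 12 names past padj that were higher in TC and below every PC fish in all 6 that were lower. TC 3 was the TC fish least apart from PC, beyond every PC fish in 9 of 12 and 5 of 6. PC 3 was its counterpart, below every TC fish in 9 of 12. These names were picked by a difference between the same fish, so separation in them was partly fixed beforehand. The counts describe the fish within these names only, and no share per fish over all names was computed. In the sentences that follow, levels of single fish are in the order TC 3, 4, 5, 6 and 8 or PC 3, 4, 5, 8 and 10, and every padj is from the edgeR test.

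miR-216a and miR-216b, known from the exocrine pancreas of mammals and zebrafish, had the widest differences. miR-216b was counted 35, 20, 47, 17 and 15 times in the TC fish and 2, 9, 10, 1 and 2 times in the PC fish. It passed the minimum through the TC fish alone, so its place among the names tested was not independent of the difference. miR-216a had 31.3, 14.4, 20.5, 20.4 and 29.3 CPM in TC and 7.16, 3.56, 5.13, 6.64 and 11.7 CPM in PC. Every TC fish was above every PC fish in both, although the lowest TC fish (TC 4, at 14.4 CPM) and the highest PC fish (PC 10, at 11.7 CPM) lay close in miR-216a. The log2FC was 2.60 for miR-216b (SE 0.41, padj = 0.00105) and 1.79 for miR-216a (SE 0.31, padj = 0.00105), and both calls were kept with each fish left out in turn. miR-217, which lies near them in vertebrate genomes and is known from the same tissue, was just under the minimum, with 24, 3, 22, 17 and 11 counts in TC and 2, 8, 5, 3 and 3 in PC. It was called with no filter on low counts and with edgeR's own filter (filterByExpr). miR-375, known from endocrine islets, had 6.51, 11.2, 7.70, 3.91 and 3.997 CPM in TC and 9.36, 15.5, 18.6, 6.95 and 14.9 CPM in PC, overlapping and not past padj (log2FC -0.95, SE 0.36, padj = 0.0955). In the fit with 1 copy per name, miR-375 was called lower in TC (padj = 0.0488). The 4 pancreas markers together therefore had 2 members upregulated (of 150 names, 3.33% were). Of the other members, 1 was lower and past padj only with 1 copy per name, and 1 was under the minimum and called only with other filters. The part of these markers in the result was not tested. In whole muscle, more cells of a type and more RNA per cell cannot be told apart, here and for every marker below.

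Of 3 precursors with a called 5p arm, the 3p arm was also higher on average in TC. miR-2188, a miRNA of fish and other non-mammalian vertebrates, had 1849, 1684, 2955, 2938 and 6055 CPM of its 5p arm in TC and 1292, 1098, 1484, 509 and 828 CPM in PC. All TC fish were above all PC fish, with TC 8 far above the other TC fish and PC 8 the lowest of PC (log2FC 1.57, SE 0.46, padj = 0.0389). This call was lost without PC 3, PC 8, PC 10, TC 5, TC 6, TC 8 or TQ 3 (log2FC 1.18 to 1.66, padj 0.0502 to 0.104). The less abundant 3p arm had 108 ± 30.8 CPM in TC and 58.9 ± 30.9 CPM in PC (SD, n = 5 each), with overlap, and did not pass (log2FC 0.87, padj = 0.214).

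miR-1388, likewise found in fish, passed padj in both arms. Its 5p arm had 1275, 964, 948, 1119 and 1208 CPM in TC and 503, 391, 475, 1026 and 504 CPM in PC. PC 8 was level with the TC fish, whereas the other 4 PC fish were all at or under 504 CPM (log2FC 0.93, SE 0.23, padj = 0.0171). Its 3p arm had 90.6, 91.6, 78.6, 98.6 and 99.9 CPM in TC and 34.1, 63.9, 63.6, 69.5 and 60.4 CPM in PC, with no overlap (log2FC 0.65, SE 0.17, padj = 0.0206). Only the 5p arm exceeded the log2FC minimum. Without PC 4 the 3p arm was called as well (log2FC 0.76, padj = 0.0131), and without TC 6 it missed padj (0.0512).

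miR-210, which in mammals and fish is induced by low oxygen, had a called 5p arm. That arm had 224, 239.7, 249, 176 and 175 CPM in TC and 115, 120.2, 105, 112 and 122 CPM in PC. The PC fish lay close together, and TC 6 and TC 8 were the lowest of TC (log2FC 0.89, SE 0.18, padj = 0.00501). The call held without any single fish (log2FC 0.83 to 0.98) and was lost with total counts or size-filtered reads as library sizes and with the fish number as a block (padj up to 0.381). The 3p arm, usually taken as the guide, was higher on average, at 400.1 ± 94.9 CPM in TC and 289 ± 64.7 CPM in PC (SD, n = 5 each), with overlapping fish (log2FC 0.47, SE 0.21, padj = 0.145), and did not pass.

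**Figure D2:**
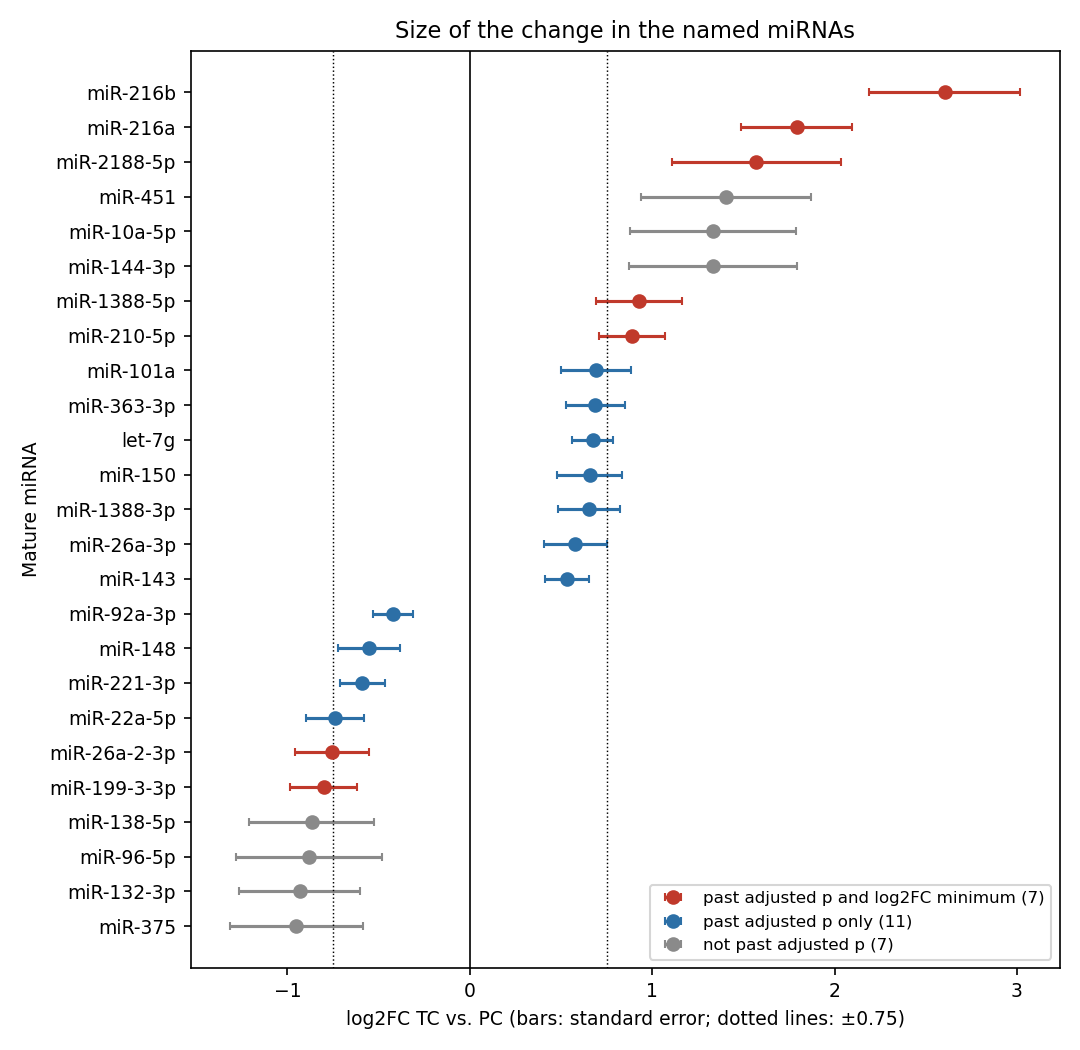
log2FC of TC vs. PC with its standard error for the 18 miRNAs past padj and 7 more with an absolute log2FC of at least 0.75 and an unadjusted p under 0.05 (gray). Narrow bars mark let-7g, miR-143 and miR-92a-3p, which passed padj below the dotted minimum of 0.75, and the widest changes after miR-216b, miR-216a and miR-2188-5p, those of miR-451, miR-10a-5p and miR-144-3p, did not pass.

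let-7g, of the family that marks differentiated tissue and represses growth genes across animals, had the smallest p after miR-216b. Its level was 10643, 9617, 8104, 10472 and 9659.7 CPM in TC and 6582, 5392, 5889, 6521 and 5992 CPM in PC. The lowest TC fish (TC 5) was above the highest PC fish (PC 3), and the log2FC of 0.67 (SE 0.11, padj = 0.00105) stayed below the minimum for a call in every fit that left out 1 fish (0.64 to 0.73). In 15 fits with other settings, let-7g passed padj in 12, with padj up to 0.571. Of 10 let-7 members tested, which share the seed GAGGUAG, 7 were higher and 3 lower. This balance turned to 4 higher and 6 lower with total counts as library sizes. Of the 10, 1 passed padj, against 12% of all names, and the median was 0.11 against 0.01 over all names. let-7f (log2FC 0.33, padj = 0.0866) and let-7c-5p (log2FC 0.32, padj = 0.0985) came next. let-7f had 2919, 2301, 2313, 3004 and 2563 CPM in TC and 2169.7, 1967, 1943, 2399 and 1975 CPM in PC, with 1 PC fish (PC 8) above the lower TC fish. The ratio of let-7g to let-7b within a library, which needs no scaling, had a mean of 1.87 ± 0.37 on the log2 scale in TC and 1.25 ± 0.29 in PC (SD, n = 5 each), with the lowest TC fish just above the highest PC fish, a description with no test.

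Of 4 miRNAs with the seed AUUGCAC, from the miR-17-92 cluster and its paralogs, which are known for driving cell division in mammals, 1 passed padj upward and 1 downward. Over all names, 8% passed upward and 4% downward. miR-363-3p had 1307, 1798, 1724, 1653 and 1649 CPM in TC and 1457, 956, 849, 856 and 929.8 CPM in PC. PC 3 was above TC 3 and every other PC fish was below all TC fish (log2FC 0.69, SE 0.16, padj = 0.012). miR-92a-3p had 1782, 2099, 1796, 1846 and 1885 CPM in TC and 2563, 2567, 2511, 2423 and 2538 CPM in PC, without overlap and with the PC fish close to each other (log2FC -0.42, SE 0.11, padj = 0.0194). It missed padj without PC 4, PC 5 or TC 5 (log2FC -0.41 to -0.34, padj 0.0535 to 0.0792), and miR-363-3p was called without PC 3 or TC 3 (log2FC 0.76 to 0.86). Each passed padj in 12 of 15 fits with other settings, with padj up to 0.638 for miR-92a-3p and 0.691 for miR-363-3p. The other 2 were on either side and not past padj. miR-25-3p was higher on average (555 ± 75.3 CPM in TC and 426 ± 85.1 CPM in PC (SD, n = 5 each), log2FC 0.38, padj = 0.109) and miR-92b-3p lower (303 ± 25.6 CPM in TC and 389 ± 40.5 CPM in PC (SD, n = 5 each), log2FC -0.36, padj = 0.0815). Within single libraries the log2 ratio of miR-363-3p to miR-92a-3p was -0.45 to -0.06 in TC and -1.56 to -0.82 in PC, so the groups were apart without any scaling, which was not tested. The summed level of the 4 miRNAs was 3823 to 4840 CPM in TC and 4023 to 4805 CPM in PC. The other 9 tested names of the miR-17-92 families, such as miR-17a-5p and miR-18a, had no member past padj.

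**Figure D3:**
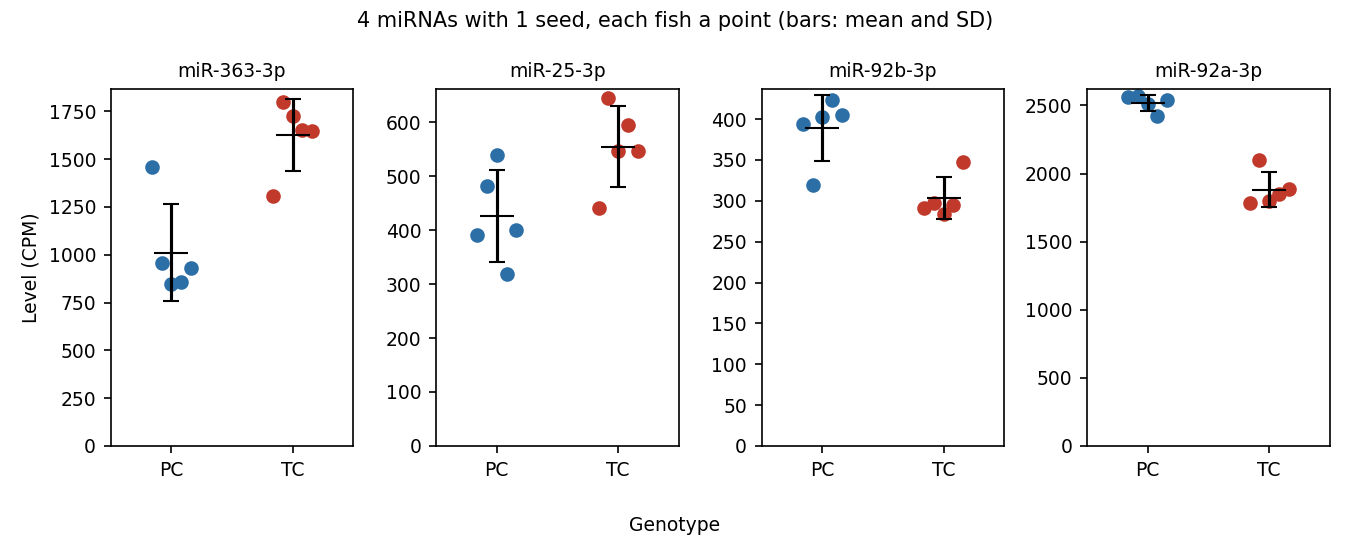
Levels (CPM, axes from 0) of the 4 miRNAs with the seed AUUGCAC, each point 1 fish, with mean and SD of the 5 PC and 5 TC fish. miR-363-3p is higher in TC except for PC 3 and TC 3, miR-92a-3p is lower in TC without overlap, and miR-25-3p and miR-92b-3p overlap.

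The passenger strands of miR-26a, a family that favors muscle differentiation in mice, also went in opposite directions. miR-26a-3p had 133, 198, 179.7, 182 and 188 CPM in TC and 141, 155, 111, 91.7 and 90.6 CPM in PC, overlapping through TC 3 (log2FC 0.58, SE 0.17, padj = 0.0419). miR-26a-2-3p, from another precursor, had 4.76, 5.16, 3.68, 3.39 and 3.997 CPM in TC and 7.71, 6.19, 7.35, 6.64 and 7.82 CPM in PC, or 9 to 43 counts per fish, without overlap (log2FC -0.75, SE 0.20, padj = 0.022). Both results were close to a threshold. The call of miR-26a-2-3p was lost in 8 of 15 fits that left out 1 fish, those of PC 3, 4, 5 and 10, TC 5, 6 and 8 and TQ 8 (log2FC -0.74 to -0.69, padj 0.0318 to 0.0687). miR-26a-3p missed padj in 10 of them, those of PC 5, 8 and 10, TC 4, 5, 6 and 8 and TQ 1, 3 and 6 (log2FC 0.50 to 0.58, padj 0.0530 to 0.112). The log2 ratio of the pair within a library was 4.77 to 5.69 in TC and 3.51 to 4.62 in PC. The guide strands miR-26a-5p and miR-26b were among the names at 0 in all fish.

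Of the other miRNAs higher in TC past padj, miR-143 and miR-101a have relatives to compare. miR-143, known from smooth muscle of vessels and gut, had 4999, 6126, 5420.1, 6403 and 5548 CPM in TC and 4664, 3290.4, 3891, 3993 and 3887 CPM in PC, with TC 3 the lowest of TC and still above PC 3 (log2FC 0.53, SE 0.12, padj = 0.00954). In 15 fits with other settings, miR-143 passed padj in 12, with padj up to 0.799. Its cluster partner miR-145 had a log2FC of 0.12 for the 5p arm and -0.11 for the 3p arm, neither past padj, and the former turned below 0 with 2 of 6 other scalings. miR-101a, which in humans represses a chromatin silencer, had 569, 851, 994, 881 and 917 CPM in TC and 626, 526, 623, 437 and 395 CPM in PC. TC 3 lay among the PC fish and the other 4 TC fish were above all of them (log2FC 0.69, SE 0.19, padj = 0.024). miR-101b, with the same seed, had 41.8 ± 7.17 CPM in TC and 38.0 ± 5.76 CPM in PC (SD, n = 5 each) and did not pass (log2FC 0.14, padj = 0.797, below 0 with 1 of 6 other scalings), and within a library the log2 ratio of miR-101a to miR-101b was 4.02 to 4.72 in TC and 3.66 to 3.996 in PC. miR-101a missed padj without PC 8, PC 10, TC 5 or TC 6 (log2FC 0.61 to 0.68, padj 0.0577 to 0.0804) and was called without PC 3, PC 4, PC 5 or TC 3.

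miR-150, a marker of mature lymphocytes in mammals, had 169.7, 175, 168, 136 and 182 CPM in TC and 66.0, 90.2, 139, 123 and 108 CPM in PC. PC 3 and PC 4 were the lowest PC fish, and TC 6 overlapped PC 5 (log2FC 0.66, SE 0.18, padj = 0.022). It was called without PC 5 (log2FC 0.82, padj = 0.0102) and missed padj without TC 5 (0.0535). Of the 5 leukocyte markers tested, 1 passed padj (miR-150, against 12% of all names), 2 were higher and 3 lower, and the median was -0.02. The summed level of these markers was 712 to 916 CPM in TC and 457 to 707 CPM in PC, and its part in the result was not tested. miR-142a-3p, miR-155 and miR-223, of the blood and immune lineages, were the members that were lower, none past padj.

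Lower in TC were miR-22a-5p, miR-221-3p, miR-92a-3p and miR-148, besides both downregulated calls. miR-22a-5p, the minor arm of a miRNA abundant in mammalian muscle and heart, had 117, 118, 121, 132 and 107 CPM in TC and 137, 229, 228, 199 and 199 CPM in PC. The TC fish kept close to each other and below PC 3, the lowest PC fish (log2FC -0.74, SE 0.16, padj = 0.00691). This was just short of the log2FC minimum, which was passed without PC 3 or TC 6 (-0.85 to -0.78). In 15 fits with other settings, miR-22a-5p was called in 7 and passed padj in 12. The other miR-22 arms were lower as well and not past padj, at a log2FC of -0.51 for miR-22b-3p (padj = 0.0985), -0.37 for miR-22b-5p (padj = 0.109) and -0.19 for miR-22a-3p (padj = 0.350). None of the 4 turned its direction with any of 6 other scalings, all of which moved the median of all names down. miR-21, of the same list, had a log2FC of 0.11, below 0 with 3 of the 6.

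miR-221-3p, which with miR-222 represses a brake of the cell cycle and falls as mammalian and avian myoblasts differentiate, had 383, 281, 332, 272 and 320.2 CPM in TC and 391.9, 507, 519, 446 and 524 CPM in PC. TC 3, the highest of TC, and PC 3, the lowest of PC, were close, and the groups did not overlap (log2FC -0.59, SE 0.12, padj = 0.00646). It passed padj without any single fish (log2FC -0.67 to -0.49) and in 12 of 15 fits with other settings (padj up to 0.335). It missed padj with total counts or size-filtered reads as library sizes and with the fish number as a block. miR-222a-3p, which has the same seed, had 363 ± 16.5 CPM in TC and 433 ± 117 CPM in PC (SD, n = 5 each) and did not pass (log2FC -0.26, padj = 0.368). The 5p arms of both were higher on average (log2FC 0.20, padj = 0.795 for miR-221-5p and log2FC 0.10, padj = 0.815 for miR-222a-5p) and not past padj, the latter below 0 with 3 of 6 other scalings.

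miR-148, a miRNA that favors differentiation of mouse myoblasts, had 1108, 818, 982, 1043 and 697 CPM in TC and 1472, 1032, 1507, 1719 and 1095 CPM in PC. The groups overlapped through TC 3 and TC 6 and through PC 4 and PC 10 (log2FC -0.55, SE 0.17, padj = 0.0492). Its padj of at most 0.05 was kept in 3 of 15 fits with 1 fish left out, those without PC 4, PC 10 or TC 3, and was 0.0526 to 0.131 in the others (log2FC -0.60 to -0.45).

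miR-199-3-3p lies on the third miR-199 precursor, of a family typical of connective tissue. The TC fish were at 123 to 147 CPM and the PC fish at 182 to 304 CPM (log2FC -0.80, SE 0.18, padj = 0.00954), and the call was lost without PC 4, PC 5 or TC 4 (log2FC -0.72 to -0.66, padj 0.0314 to 0.0498). The near-identical miR-199-3p had 12145 ± 2113 CPM in TC and 14244 ± 2353 CPM in PC (SD, n = 5 each) (log2FC -0.23, padj = 0.45). The log2 ratio of miR-199-3-3p to miR-199-3p within a library was -6.85 to -6.07 in TC and -6.32 to -5.69 in PC, with overlap. miR-199-5p, annotated on all 3 zebrafish miR-199 precursors and the highest of all names, and miR-214 did not pass (log2FC 0.14, padj = 0.789 and log2FC -0.06, padj = 0.816).

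A further 7 names had an absolute log2FC of at least 0.75 and an unadjusted p under 0.05 but missed padj. DESeq2 called 4 of them, miR-451, miR-144-3p, miR-10a-5p and miR-132-3p, with or without a log2FC prior, and edgeR on the 10 TC and PC fish alone called miR-451 and miR-144-3p. With 1 copy per name in the fit, edgeR called miR-132-3p, miR-375 and miR-138-5p, all lower in TC. miR-451 and miR-144-3p, made from 1 primary transcript in red blood cell precursors, were both higher in TC. miR-451 had 1634, 1954, 3061, 2426 and 4783 CPM in TC and 1337, 1464, 1228, 444 and 758 CPM in PC, without overlap (log2FC 1.40, SE 0.47, padj = 0.0738). miR-144-3p had 5630.2, 1808, 4124, 4356 and 9821 CPM in TC and 2177, 943, 2686, 1976 and 2439.8 CPM in PC, and TC 4 lay among the PC fish (log2FC 1.33, SE 0.46, padj = 0.0774). TC 8 was highest and TC 3 and TC 4 lowest in miR-451, an order that miR-144-3p did not follow in TC 3. The log2 ratio of miR-144-3p to miR-451 within a library was -0.11 to 1.78 in TC and -0.63 to 2.15 in PC. Without TQ 2 both were called (padj 0.0273 to 0.0332), without PC 4 miR-451 was called (log2FC 1.62, padj = 0.0456), and without TC 4 miR-144-3p (log2FC 1.61, padj = 0.0281). The summed level of both erythroid markers was 3762 to 14603 CPM in TC and 2407 to 3914 CPM in PC, and the part of blood left in the tissue was not tested.

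miR-10a-5p, encoded among the Hox genes, had 9325, 3025, 3603, 5081 and 9296 CPM in TC and 2163, 735, 982, 5236 and 2921 CPM in PC, and PC 8 was above 3 TC fish (log2FC 1.33, SE 0.46, padj = 0.0774). It was called without PC 8 or TC 4 (log2FC 1.57 to 1.83, padj 0.0114 to 0.0284). miR-10c-5p, which differs from it at 1 of 22 positions, had 9759 ± 1075 CPM in TC and 8009 ± 2521 CPM in PC (SD, n = 5 each) (log2FC 0.29, padj = 0.49). miR-132-3p, induced by activity in neurons, had 21.0, 15.9, 14.5, 27.9 and 25.3 CPM in TC and 53.7, 13.9, 32.7, 56.9 and 42.7 CPM in PC. PC 4 was below every TC fish and the other 4 PC fish above all of them (log2FC -0.93, SE 0.33, padj = 0.0807), and without PC 4 it was called (log2FC -1.09, padj = 0.0131). miR-138-5p of neurons (log2FC -0.87, SE 0.34, padj = 0.0985) had 12 to 53 counts per fish and was called without TC 8 (log2FC -1.26, padj = 0.0113). miR-96-5p of sensory cells (log2FC -0.88, SE 0.40, padj = 0.151) had 28.9 ± 12.0 CPM in TC and 53.3 ± 27.9 CPM in PC (SD, n = 5 each), with overlap.

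Beyond these, 33 lists of families and cell type markers were read by their counts. Of 9 striated muscle markers, the 2 tested were higher in TC on average without passing padj. Another 4 were at 0 in all fish. miR-133c-5p, miR-133c-3p and miR-133b-5p were under the minimum, with 2 to 21 counts per fish that overlapped between TC and PC, and were not tested. miR-1 had 633, 1022, 913, 1105 and 970.5 CPM in TC and 883, 671, 775, 672 and 614 CPM in PC (log2FC 0.36, SE 0.15, padj = 0.121). TC 3 was lowest of TC and below PC 3, PC 4, PC 5 and PC 8. miR-206-3p had 118, 133, 137, 249 and 457 CPM in TC and 155, 131, 162, 211 and 192 CPM in PC, with TC 6 and TC 8 above every PC fish and TC 3 below all of them (log2FC 0.36, SE 0.30, padj = 0.552). Both arms of the slow-fiber miRNA miR-499 were within a log2FC of 0.27 of 0, the 3p arm below 0 with 3 of 6 other scalings. The fish cluster miR-462 and miR-731, known for its response to viral infection, was higher in TC in both members and not past padj (log2FC 0.49, padj = 0.0807 and log2FC 0.30, padj = 0.299). All 3 tested names of the miR-15 and miR-16 family were higher, led by miR-15a-5p (log2FC 0.60, padj = 0.0919), none past padj.

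Some large families had a median close to 0 among the names tested and no member past padj, against 12% of all names. These were miR-30 (6 of 8 names tested, median -0.02), miR-130, miR-301 and miR-454 (6 of 11, median 0.03), miR-23, miR-24 and miR-27 (8 of 17, median 0.06) and miR-99, miR-100 and miR-125 (5 of 11, median -0.01). Names such as miR-23a-3p, miR-125b-5p and miR-301b-3p were among those at 0 with overlapping places, so the medians cover part of each family. miR-27b-3p, which in mice lowers a factor of muscle stem cells, had the widest increase among miR-23, miR-24 and miR-27 (log2FC 0.40, padj = 0.133). miR-100-5p and miR-99, which with miR-199-5p were the 3 highest names, had a log2FC of -0.01 and -0.34 and PC fish on both sides of all TC fish. Counting 1 copy per name, miR-199-5p took 31.6% ± 3.001 of the counts in TC and 30.8% ± 5.65 in PC (SD, n = 5 each), and miR-100-5p 25.0% ± 3.95 and 25.4% ± 6.58. Of the fish miRNAs miR-722 to miR-740, 5 of 7 were lower, and none passed padj. With the other scalings, which all moved the median of all names down, 5 or 6 were lower. miR-737-5p of these had 359, 389, 407, 401 and 389.5 CPM in TC and 406, 513, 603, 471 and 591 CPM in PC, and the groups met at TC 5 and PC 3 (log2FC -0.41, SE 0.14, padj = 0.0774).

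Several other miRNAs had an unadjusted p under 0.05 and missed padj. miR-458-3p, in no list, had 141, 231, 216, 221 and 147 CPM in TC and 277, 264, 331, 259 and 273 CPM in PC, every TC fish below every PC fish (log2FC -0.55, SE 0.18, padj = 0.0575). miR-489, known from quiescent muscle stem cells in mice, had 53.3, 59.8, 58.1, 55.8 and 64.4 CPM in TC and 80.1, 61.1, 92.0, 70.5 and 90.3 CPM in PC. PC 4 alone lay among the TC fish (log2FC -0.44, SE 0.17, padj = 0.0985). miR-142a-5p, of blood cells, had 471, 521, 667, 531 and 531 CPM in TC and 336, 513, 402, 406 and 339 CPM in PC, and PC 4 alone lay among the TC fish (log2FC 0.45, SE 0.15, padj = 0.0774). miR-365 had 1332, 1264, 1148, 963 and 811 CPM in TC and 823, 943, 858, 815 and 777 CPM in PC, with TC 8 below most PC fish (log2FC 0.39, SE 0.14, padj = 0.0807). miR-455-3p had 68.3, 39.6, 46.1, 50.4 and 109 CPM in TC and 80.6, 67.5, 82.2, 114 and 138 CPM in PC (log2FC -0.63, SE 0.26, padj = 0.109). The groups overlapped through TC 8 and, just above PC 4, TC 3, and miR-455-3p was called without TC 8. Of the 46 names at an unadjusted p under 0.05, none turned its direction with any of 6 other scalings. For those lower in TC this was favored beforehand, since all 6 moved the median of all names down.

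The remaining lists had few members to test and none past padj, against 12% of all names. Neural miRNAs were 2 higher and 3 lower (median -0.17), the sensory cluster of miR-96, miR-182 and miR-183 1 higher and 2 lower (median -0.56), and both epidermal miRNAs, miR-203a-3p and miR-205-5p, were lower (median -0.30). The medians of these 3 lists stayed below 0 with 6 other scalings, which all moved the median of all names down. The 2 markers of liver and intestine tested, miR-122 and miR-192, had a log2FC of 0.09, which changed sign with 3 of 6 other scalings, and -0.03. Of miR-181, 1 was higher and 3 lower (median -0.11, below 0 with the 6 other scalings too), with the passenger miR-181a-3p the widest (log2FC -0.34, padj = 0.159). miR-146a and miR-146b, both induced in inflammation, had a log2FC of 0.24 and -0.55, and miR-29a, the 1 tested miR-29 name, of -0.50 (padj = 0.159). miR-212-5p, of the cluster of miR-132, was at -0.02. The lists of endothelium and of the epithelial miR-200 family had no name to test.

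**Figure D4:**
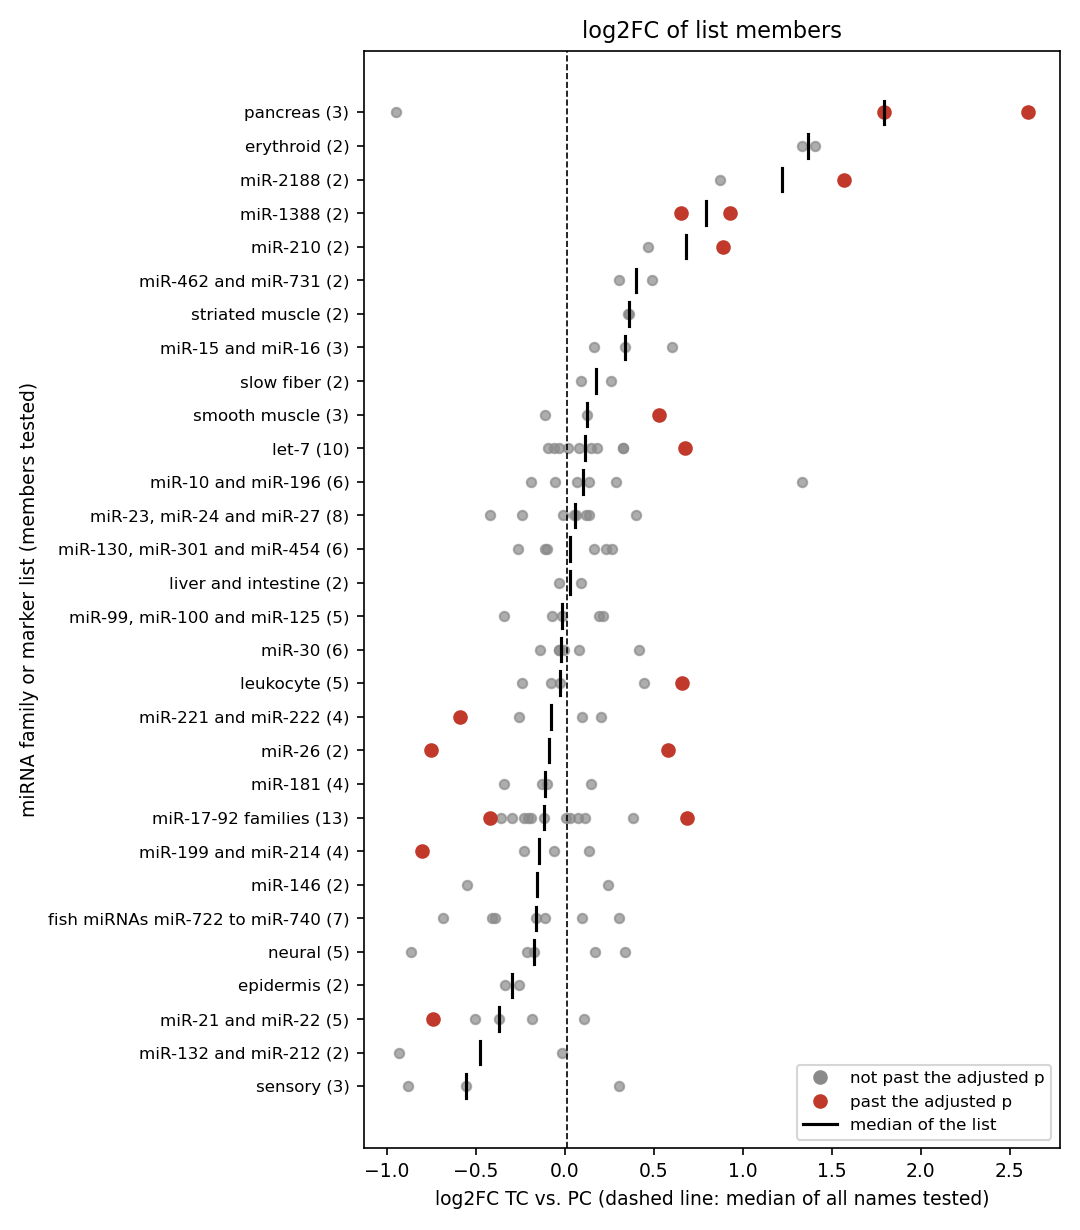
log2FC of TC vs. PC for the tested members of each family or marker list with at least 2 (number in brackets), red for those past padj, with the median of each list as a black bar and the median of all names as a dashed line. Lists of several members scatter around 0, with red points on both sides of the miR-26 and miR-17-92 rows.

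The balance of the arms was compared next, since both arms of a precursor are counted in 1 library and their ratio needs no scaling. Of 23 pairs, none passed the adjusted p (exact permutation test of 5 fish against 5, two-sided, smallest possible p = 0.00794). A single pair at that smallest p could not pass after adjustment over 23 pairs, so this does not show equal arm balance. An unadjusted p under 0.05 was found in 4 pairs, named here after their values were seen. The ratio of miR-199-5p to miR-199-3-3p was higher in TC, at 10.27 ± 0.17 against 9.33 ± 0.67 on the log2 scale (SD, n = 5 each), with PC 3 inside and PC 8 just below the TC range (difference 0.94, exact p = 0.0159, adjusted 0.183). miR-199-5p has 3 copies, 1 on each miR-199 precursor, with nearly equal counts. Its ratio to miR-199-3-3p thus sets a 5p arm shared by 3 precursors against the 3p arm of 1, and is not the arm balance of that precursor alone. The ratio of miR-22a-5p to miR-22a-3p was lower, at -5.17 ± 0.12 against -4.64 ± 0.29, and only PC 3 lay among the TC fish (difference -0.53, exact p = 0.0159, adjusted 0.183). miR-221 and miR-142a shifted toward the 5p arm by 0.86 (exact p = 0.0476, adjusted 0.274) and 0.51 (exact p = 0.0397, adjusted 0.274), with overlapping fish. For the 3 precursors with a called 5p arm and both arms tested, the shift of the ratio was 0.31 in miR-1388, 0.49 in miR-2188 and 0.41 in miR-210, and none had an unadjusted p under 0.05 (exact permutation tests, p = 0.262, 0.103 and 0.0635). The ratio of miR-22b-5p to miR-22b-3p differed by 0.10 (exact p = 0.675).

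**Figure D5:**
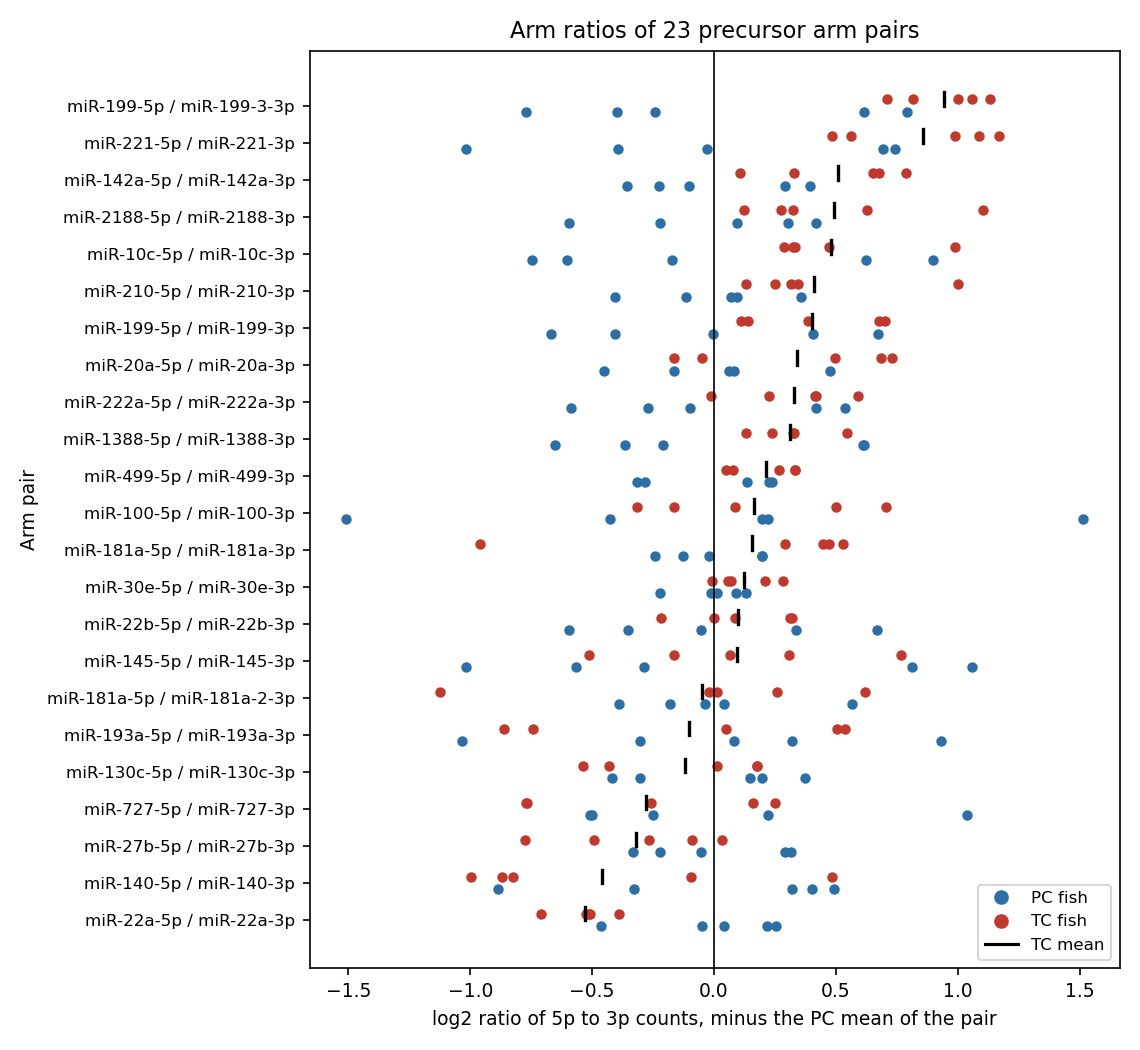
log2 ratio of 5p to 3p counts in each PC (blue) and TC fish (red) for 23 arm pairs, minus the PC mean of the pair, with the TC mean as a black bar. The TC fish lie to the right of most PC fish for miR-199-3-3p, miR-221 and miR-142a and to the left for miR-22a, and in no pair are the genotypes fully apart.

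Copies of 1 mature name had nearly equal totals in most cases. miR-129-5p had 726 counts in each of 4 copies and miR-365 had 42139 in each of 3. The same reads thus appear to have been counted at each matching place, so agreement between copies adds no support. Of 34 names with 2 or more tested copies, 27 had totals within 5% of each other. Totals differed most for let-7a (by 72.3%), miR-7a (59.5%), miR-206-3p (42.4%), miR-99 (19.9%) and miR-212-5p (11.3%), and none of these 5 names passed padj in any copy. The copies of let-7a also differed in direction, at a log2FC of -0.10 for the one with the highest total and 0.57 for the other (padj = 0.815 and 0.0774). Of the 18 names past padj, let-7g and miR-92a-3p had 2 tested copies, with totals 0.0282% and 8.40% apart.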

How the data were processed

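Small RNA libraries from fast muscle of 5 TC, 5 PC and 5 TQ fish were prepared with TruSeq and sequenced by the authors. Adapters were clipped with Fastx-toolkit, reads of 17 to 26 nt were kept, then aligned to zebrafish (Danio rerio) precursors from miRBase 22 by Hisat2, and featureCounts counted them at places that GMAP had assigned to mature sequences. Versions of these tools, and how multiply matching reads were treated, were not given in the sources used here. Raw counts per copy, as deposited, were tested. The authors also deposited a normalized signal, the count divided by 1 DESeq2 size factor per fish, which set the minimum mean of 10.

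Counts were compared in edgeR 4.0.16 by its quasi-likelihood test (limma 3.58.1, R 4.3.3, dispersion estimate of earlier versions), with TMM scaling (factors 0.621 to 1.43), all 15 fish in 1 fit and Benjamini-Hochberg adjustment over 197 rows. Calls needed an absolute log2FC of at least 0.75 and an adjusted p of at most 0.05. On simulated counts with 60 of 197 rows changed by a log2FC of 1.5, 95% were recovered with 0 false calls. Each row was drawn independently at its fitted dispersion, copies included, and changes near the minimum of 0.75 were not simulated. The simulation therefore checks the procedure and does not give the power or the rate of false calls in these data. Arm ratios, log2((5p + 0.5)/(3p + 0.5)), were compared by exact permutation tests over 5 against 5 fish, two-sided, adjusted over 23 pairs. Total counts were 2422820 to 5669084 per TC or PC fish, with copies included, so 1 read can enter them more than once. Variation between fish (biological coefficient of variation 0.278) limits the precision more than counting does, except in names with few counts, such as miR-216b in PC. PCR copies were not distinguished. Each library is 1 fish, and no source pairs the fish.

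Named were the called miRNAs, those with an absolute log2FC of at least 0.75 and an unadjusted p under 0.05, their other arms, copies and seed mates, and leading members of 33 lists. Names past the adjusted p below the log2FC minimum and 4 arm pairs were added after their values were seen. Members and lists were chosen with earlier results of these data known. Alternatives were other scalings, filters, tools, treatments of copies, fish in the fit, log2FC minimums, a replicate block and each fish left out. A newer dispersion estimate, a fit without PC 4 and TQ, and counts past the adjusted p under each alternative were added after seeing the data. Target genes were not analysed here. DESeq2 1.42.0, matplotlib 3.10.9, scipy 1.17.1, numpy 2.4.6, pandas 2.3.3 and Python 3.11.15 were also used.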

Additional observations from a re-analysis of the deposited data

Results flagged for a closer look

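In 9 of 58 groups of 5 fish examined, 1 fish stood apart from the other 4 by more than Dixon's 95% limit of 0.71, where chance alone gives about 1 group in 20. Of these, 6 were in TC 3 or PC 3. TC 3 was the lowest TC fish, and within the range of the PC fish, in miR-363-3p (1307 CPM), miR-101a (569 CPM) and miR-26a-3p (133 CPM). PC 3 was the highest PC fish in miR-363-3p (1457 CPM) and the lowest in miR-22a-5p (137 CPM) and miR-1388-3p (34.1 CPM). PC 8 was the highest PC fish in miR-1388-5p (1026 CPM), TC 6 the lowest TC fish in miR-150 (136 CPM) and TC 8 the highest TC fish in miR-138-5p (9.33 CPM).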

How the results depend on the processing

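The log2FC of the 25 miRNAs named for their size or padj kept its direction in all 750 estimates. These came from 15 fits with other settings and 15 with 1 fish left out, each read for every name. The names were picked by a difference in the same fish, and the fits share most of their data, so this was partly fixed beforehand. The 7 calls became 4 with total counts as library sizes, 3 with size-filtered reads, 14 with no filter on low counts, 12 with DESeq2 without a log2FC prior, 11 with only the copy of highest total per name, 18 with no log2FC minimum and 3 with a minimum of 1. With DESeq2 size factors they were 5 up and 3 down, and with library sizes that leave out miR-199-5p and miR-100-5p 5 up and 4 down. The names that 1 copy per name added to the calls, miR-22a-5p, miR-132-3p, miR-138-5p and miR-375, were all lower in TC. The 18 names past padj became 4, 3 and 28 with total counts, size-filtered reads and 1 copy per name. With 1 fish left out, calls ranged from 5 to 10 and names past padj from 11 to 24. The fish number as a replicate block left 1 call, miR-216a, and 1 name past padj. That block adds a term for each number, and PC 10, the only fish with its number, then adds nothing to the contrast. How much of the loss comes from the fewer degrees of freedom was not tested. Same-numbered TC and PC fish deviated together with a correlation over names of -0.09, 0.18, 0.33 and 0.19 for numbers 3, 4, 5 and 8. TC 4 and TC 8 correlated best with the PC fish of their own number, and TC 3 and TC 5 with another. The numbers were not taken to pair the fish. No arm pair passed the adjusted p under any alternative. With so few fish, several pairs at or near the smallest possible p would have been needed, so this was nearly fixed beforehand. The causes of these differences were not tested. Low counts limit miR-216b in PC (1 to 10 per fish) and miR-26a-2-3p (9 to 43).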
